A study of Sus scrofa with 4 samples.

Results

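Elastin (ELN), the fibrillins FBN1 and FBN2, the fibulins FBLN1, FBLN2, FBLN5 and EFEMP2 (fibulin-4), and the microfibril-associated proteins MFAP2, MFAP4 and MFAP5 were followed in 4 RNA libraries of porcine fetal fibroblasts. These 10 genes, of 35670 listed in the count files, were chosen by name and function with their differences between the groups already known, so the values below describe them and are no independent evidence of a direction. Each symbol matched exactly 1 row of the files. The cells are skin fibroblasts of pig fetuses, the cell type used as nuclear donor in pig cloning, and all 4 libraries came from cells under serum starvation. Of these, 2 libraries are controls of the genotype WT (titles pTK-642-1 and pTK-642-2), and 2 carry the genotype BRG1-overexpressed (titles pTK-642-BRG1-1 and pTK-642-BRG1-2). The name pTK-642, which both groups share, is not explained in the sources used here, so whether the controls carry a vector is not known. No label says whether libraries of a group came from separate cultures or fetuses, so the spread between the 2 libraries of a group may be technical. Standard errors below come from edgeR's fit, which pools the spread over both groups and draws on all tested genes. Exact intervals cover counting error only.

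Elastic fibres give skin, lung and arteries their recoil. They are built from a core of crosslinked elastin on a scaffold of microfibrils, whose backbone is fibrillin. Fibulins bring tropoelastin, the soluble elastin precursor, together with the lysyl oxidases that crosslink it, and small microfibril-associated glycoproteins decorate the fibrillin backbone. Microfibrils also hold latent TGF-beta and bone morphogenetic proteins in the matrix.

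The libraries held 34486400 to 38126860 reads in genes. BRG1, the ATPase that the label names, is encoded by SMARCA4, whose reads numbered 5406 and 5734 in controls 1 and 2 and 6255 and 6119 in the BRG1-labelled libraries; it differed by -0.04 ± 0.11 (log2, SE) and was not called by edgeR's test (adjusted p = 0.765), so the row does not show the labelled over-expression. Both its sign and its call depended on the settings. It was 0.18 by library size alone, which moves the median of all genes by 0.23, and -0.15 without control 1. With the gene span trend removed it was called lower by edgeR (-0.35, adjusted p = 0.00549). The median over all genes was -0.16 in that fit, so part of this value is shared by all genes. Whether an introduced BRG1 sequence would be counted in this row is not known. Of all reads, 6.11% and 7.34% fell outside genes in the controls, and 10.3% and 10.5% did so in the BRG1-labelled libraries; their part in the values below was not tested. Fibroblast markers were abundant: the collagens COL1A1, COL1A2 and COL3A1, the receptors PDGFRA and PDGFRB, vimentin (VIM) and lumican (LUM) each had at least 20709 reads in every library. Their summed level was 24236 and 27568 CPM in the controls and 33990 and 34038 CPM in the BRG1-labelled libraries, with 4 of the 7 called higher. Of the markers of other cells, PTPRC (immune cells), KRT5 and KRT1 (keratinocytes) and TEK (endothelium) had 0 reads, but others on these lists did not. KRT10 had 81 to 100 reads per library and CD68 had 45 to 106. CDH1, of the keratinocyte list, had 0 reads in both controls and 2 and 33 in BRG1-labelled libraries 1 and 2. Of the melanocyte list MITF was called higher (log2 fold change 1.11) while TYR had at most 1 read, and of the keratinocyte list EPCAM was called lower (-3.21), on 1 to 20 reads.

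In the BRG1-labelled libraries the 10 genes together took 0.518% and 0.515% of all gene reads, against 0.126% and 0.180% in controls 1 and 2. Every one of the 10 lay higher in both BRG1-labelled libraries than in both controls, as did 37.5% of the 14617 genes tested. Levels are given as CPM, reads scaled by library size and by edgeR's TMM factor. All 10 were called higher (adjusted p below 0.05 over all genes tested, edgeR quasi-likelihood test), beside 21% of all tested genes, and 9 were both called and at least 2-fold higher, beside 8.67% of all tested genes. Since the genes were chosen with this contrast known, nothing follows from these counts. Their log2 fold changes ran from 0.71 for EFEMP2 to 4.22 for ELN, with a median of 1.78 against 0.02 over all tested genes. In bulk RNA, more cells of a kind and more RNA per cell cannot be told apart.

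**Figure D1:**
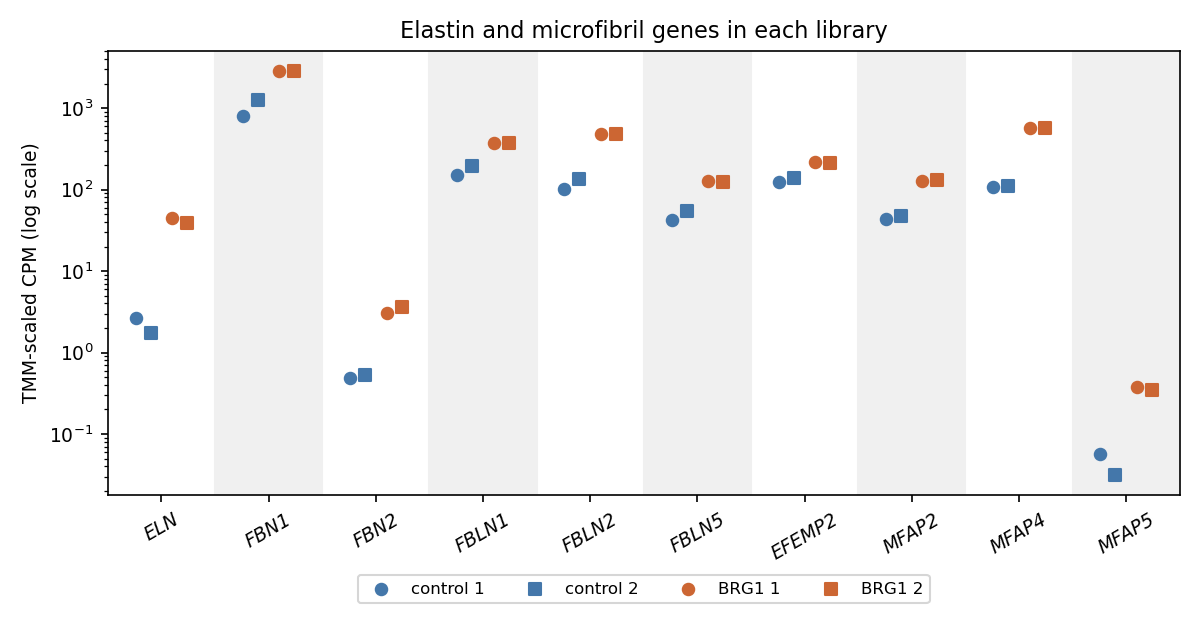
TMM-scaled CPM on a log axis for each of the 10 genes; circles and squares are replicates 1 and 2, blue the controls and orange the BRG1-labelled libraries. For every gene the orange points lie above the blue ones, by the widest margin for ELN (at most 2.69 CPM in controls, at least 38.9 in the BRG1-labelled libraries).

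ELN encodes tropoelastin, the protein of the elastic core (ENSSSCG00000025858; Sscrofa11.1 chromosome 3, 11214194 to 11245891). Its reads numbered 94 and 56 in controls 1 and 2, and 1732 and 1457 in the BRG1-labelled libraries. On the CPM scale these were 2.69 and 1.74 in the controls, and 44.2 and 38.9 in the BRG1-labelled libraries. The lowest value of the BRG1-labelled group was 14.5 times the highest control value. The log2 fold change of 4.22 ± 0.19 (SE; 95% interval 3.81 to 4.63), an 18.6-fold difference, lay above that of 99.7% of all tested genes. Control 1 was the higher control for ELN in CPM. For FBN1, FBLN1, FBLN2, FBLN5, EFEMP2, MFAP2 and MFAP4 control 2 was the higher one. FBN2 had 17 reads in each control, and MFAP5 had 2 and 1.

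FBN1, the main fibrillin of postnatal tissue and the gene mutated in Marfan syndrome, lies on chromosome 1 (123102011 to 123359649). It supplied 58.2% and 64.8% of the reads of the 10 genes in controls 1 and 2, and 59.6% and 59.5% in the BRG1-labelled libraries. From 27890 and 40257 reads its level was 797 and 1254 CPM in the controls, and from 111949 and 106224 reads it was 2854 and 2838 CPM in the BRG1-labelled libraries. The controls stood 1.57-fold apart, a wider gap than in 86.7% of tested genes, while BRG1-labelled library 2 stood at 0.994 times library 1. The groups did not overlap: the lowest BRG1-labelled library was 2.26 times the highest control. The log2 fold change was 1.47 ± 0.17 (SE), or 1.82 when control 2 was left out and 1.18 when control 1 was left out.

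FBN2, the fibrillin made mostly in development, lies on chromosome 2 (131150665 to 131370241) and was represented by few reads: 17 in each control, and 119 and 135 in the BRG1-labelled libraries. These correspond to 0.49 and 0.53 CPM, and to 3.03 and 3.61 CPM. The ratio of the summed reads, scaled as the fit scales them, was 6.54 (95% exact interval 4.56 to 9.65, covering counting error only), and the fitted log2 fold change was 2.70 ± 0.42 (SE). FBN2 thus made up 0.061% and 0.042% of fibrillin reads in the controls, and 0.11% and 0.13% in the BRG1-labelled libraries. The third fibrillin of the annotation, FBN3, had 0 reads in all 4 libraries.

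Fibulins are short rod-like glycoproteins of calcium-binding EGF modules. FBLN5, on chromosome 7 (113423629 to 113526412), and EFEMP2, on chromosome 2 (6455155 to 6463493), are the fibulins needed for elastic fibre assembly: the first binds tropoelastin and LOXL1, the second binds the precursor of LOX. FBLN5 stood at 42.9 and 55.2 CPM in controls 1 and 2, and at 127 and 123 CPM in the BRG1-labelled libraries (log2 fold change 1.35 ± 0.12, SE). EFEMP2 stood at 123 and 137 CPM in the controls, and at 216 and 210 CPM in the BRG1-labelled libraries (0.71 ± 0.10). The smallest difference of the 10 genes was that of EFEMP2, whose lowest BRG1-labelled library was 1.54 times its highest control.

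FBLN1, which binds fibronectin and lies within elastic fibres, is on chromosome 5 (3839498 to 3927178). Its level was 151 and 195 CPM in controls 1 and 2, and 371 and 375 CPM in the BRG1-labelled libraries (log2 fold change 1.11 ± 0.12, SE). FBLN2, which binds fibrillin and basement membrane proteins, is on chromosome 13 (70757255 to 70830430). It stood at 102 and 135 CPM in the controls and at 481 CPM in each BRG1-labelled library (2.02 ± 0.13). Of the 4 fibulins it had the largest difference, a 4.06-fold one.

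Among the reads of these 4 fibulins, a share that no library scaling touches, FBLN2 went from 24.4% and 25.8% in the controls to 40.3% and 40.4%. EFEMP2 went the other way, from 29.4% and 26.2% to 18.1% and 17.7%, and FBLN1 from 35.9% and 37.4% to 31.0% and 31.5%. The share of FBLN5 overlapped between the groups (10.2% and 10.6% in the controls, 10.7% and 10.4% in the BRG1-labelled libraries). Each fibulin was higher on its own, but the shares of a library are parts of a whole. A larger share of FBLN2 therefore makes the other shares smaller, and they are not separate observations. How often such shares lie apart between the groups for other genes was not computed. Reads are not divided by transcript length here, so a share compares libraries and not fibulins with each other.

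MFAP2 (MAGP-1), a small glycoprotein bound along fibrillin microfibrils, lies on chromosome 6 (75607515 to 75615680). It measured 43.4 and 46.8 CPM in controls 1 and 2, and 128 and 133 CPM in the BRG1-labelled libraries (log2 fold change 1.53 ± 0.10, SE). MFAP4, a fibrinogen-related protein that binds elastin and fibrillin, lies on chromosome 12 (60141488 to 60144214). It measured 107 and 111 CPM in the controls, and 564 and 569 CPM in the BRG1-labelled libraries (2.38 ± 0.11). The replicates of MFAP4 lay close together, 1.04-fold apart in the controls and 1.01-fold in the BRG1-labelled libraries, beside a 5.22-fold difference between the groups.

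MFAP5 (MAGP-2), the relative of MFAP2 on chromosome 5 (62742520 to 62757522), was at the limit of detection, with 2 and 1 reads in the controls and 15 and 13 in the BRG1-labelled libraries. The ratio of the summed reads was 8.17 with a 95% exact interval from 2.52 to 42.0, again for counting error only. Its CPM passed the filter on low counts in 0 of the 2 controls and in both BRG1-labelled libraries, so that it had to differ in order to be tested. The call was lost in 7 of the 11 other fits that gave it a value, among them DESeq2 and each fit without 1 library; the 9 other genes passed the filter in all 4 libraries and were called in all 12 other fits.

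**Figure D2:**
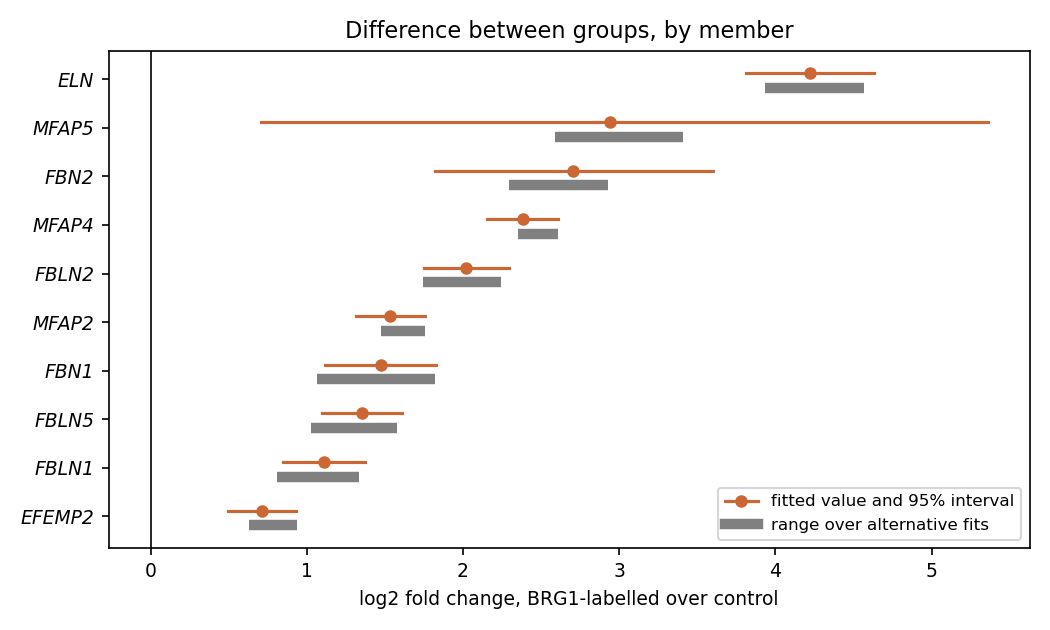
Log2 fold change (BRG1-labelled libraries over controls) of each gene: orange points and lines give the fitted value with its 95% interval, and grey bars the range over the alternative fits. All intervals and bars lie above 0, from EFEMP2 at 0.71 to ELN at 4.22, and MFAP5 has the widest interval (0.71 to 5.36).

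The spread between libraries was unequal in the 2 groups. Over all tested genes the median absolute log2 difference between replicates was 0.22 for the controls and 0.12 for the BRG1-labelled libraries. FBN1, FBLN1, FBLN2 and FBLN5 were 1.57-fold, 1.29-fold, 1.32-fold and 1.29-fold higher in control 2 than in control 1. EFEMP2, MFAP2 and MFAP4 differed less between the controls, by 1.11-fold, 1.08-fold and 1.04-fold.

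Reads of each gene were also counted per 1000 reads of FBN1 in the same library, which shows the make-up of the system around its most read microfibril gene without any scaling. ELN went from 3.37 and 1.39 in controls 1 and 2 to 15.5 and 13.7 in the BRG1-labelled libraries. MFAP4 went from 134 and 88.3 to 198 and 201, and FBLN2 from 129 and 107 to 169 and 169; FBN2 and MFAP5 also lay above the controls, on few reads. EFEMP2 lay below both controls, at 75.6 and 73.9 against 155 and 109, as did FBLN1, at 130 and 132 against 189 and 156.

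FBLN5 (44.6 and 43.4 against 53.8 and 44.0) and MFAP2 (44.9 and 46.8 against 54.4 and 37.3) overlapped between the groups. Relative to FBN1, then, 5 genes lay above both controls, 2 below, and 2 overlapped; of the 5, MFAP5 rests on 2 and 1 control reads. Since FBN1 itself was higher, 86.2% of the 14616 other tested genes lay below both controls on this scale and 3.19% above. For MFAP4, MFAP2, FBN2 and EFEMP2 most of the gap between the controls in this ratio is that of FBN1, which differed by 0.65 (log2) between them, against 0.055 to 0.15 for these 4. The ratios are given as a description, with no test.

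**Figure D3:**
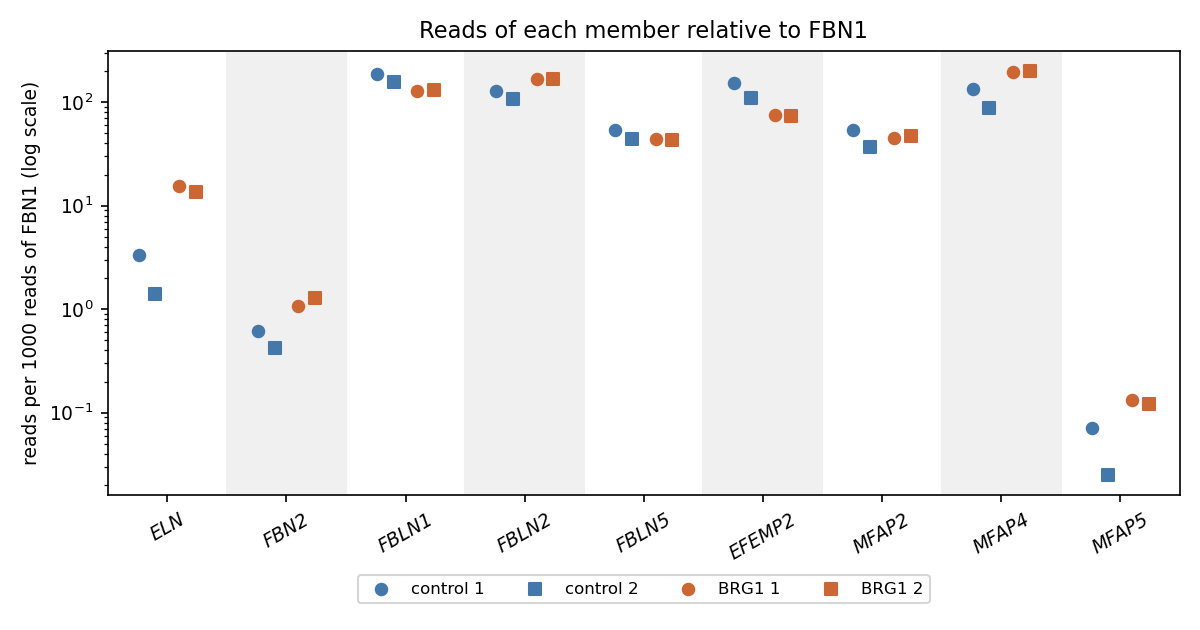
Reads of each gene per 1000 reads of FBN1 in the same library, on a log axis, with blue controls and orange BRG1-labelled libraries. ELN lies apart from its controls (at least 13.7 against at most 3.37), EFEMP2 lies below them, and FBLN5 and MFAP2 overlap.

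The 10 genes lie on 8 chromosomes. FBN2 and EFEMP2 share chromosome 2, and FBLN1 and MFAP5 share chromosome 5, in each case far apart. They span from 2.73 kb (MFAP4) to 258 kb (FBN1) of genome, so the group holds both short and long genes. Once the trend of the reads with gene span was taken out of every library, the log2 fold change was 1.07 for FBN1, 2.30 for FBN2, 0.81 for FBLN1, 1.74 for FBLN2 and 1.03 for FBLN5, each lower than before. It was also lower for ELN (4.06), little moved for MFAP5 (2.93), and higher for the short genes MFAP4 (2.58), MFAP2 (1.61) and EFEMP2 (0.79). The trend was fitted on CPM without TMM factors, and TMM factors were then applied as well. This fit moved the median of all genes by -0.14, to -0.16, so its values are not centred on 0. The fall of ELN was about as large as this shift. In RefSeq annotation of the same build 3 of the 10 overlap a neighbour: FBLN5 overlaps TRIP11 by 2007 bases, EFEMP2 overlaps MUS81 by 669 and MFAP4 overlaps MAPK7 by 77. None of these neighbours was called (log2 fold changes 0.15 ± 0.11, -0.11 ± 0.13 and -0.24 ± 0.10, SE). No source used here gives the strand setting of the counting, so reads in the overlaps cannot be assigned to either gene.

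Of the 40 nearest tested genes with a symbol, 2 on each side of each member, 8 were called higher, 6 lower and 26 neither, with a median log2 fold change of 0.04; over all tested genes 21% were called higher and 23.6% lower. Next to ELN, the kinase gene LIMK1 lies 6.93 kb away and had a log2 fold change of 0.22 ± 0.14. Both direct neighbours of MFAP2 were called higher, CROCC, 1.21 kb away (1.07 ± 0.21), and ATP13A2, 2.64 kb away (0.73 ± 0.10). Larger differences among called neighbours were those of RIMKLB, next to MFAP5 (1.98 ± 0.25), and CHSY3, second nearest on its side of FBN2 (1.92 ± 0.16). In the other direction, WNT7B, second nearest on its side of FBLN1, was lower (-1.86 ± 0.25).

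**Figure D4:**
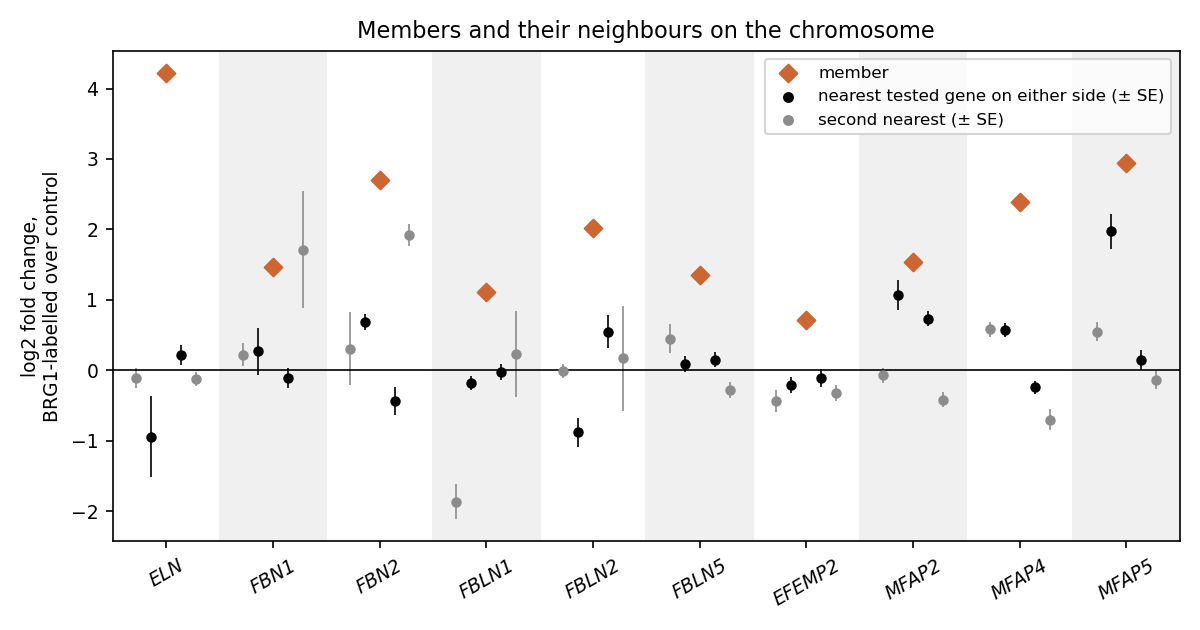
Log2 fold change (BRG1-labelled libraries over controls) of each gene (orange diamonds) and of the 2 nearest tested genes on each side (black nearest, grey second, bars SE). Neighbours scatter around 0, with a median of 0.04; the one above its member is beside FBN1, SLC12A1 (1.71 ± 0.83).

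Other genes that build, crosslink, hold or cut these fibres were taken from a list of 68 partners by role, of which 59 could be tested. Of these, 27 were called higher, 17 lower and 15 neither, with a median of 0.30 against 0.02 over all tested genes. The shares over all tested genes were 21% higher and 23.6% lower, against which the counts of this list and of each role below are to be read. With scaling by library size alone, which moves the median of all genes by 0.23, 35 rose and 9 fell. Leaving out BRG1-labelled library 1 gave 23 and 6, and leaving out library 2 gave 22 and 9. The adjusted p values below come from edgeR's quasi-likelihood test over all genes.

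Of 10 crosslinking and processing enzymes 6 were called higher and 3 lower. LOX, the lysyl oxidase that starts crosslinks in elastin and collagen, stood at 290 and 352 CPM in controls 1 and 2 and at 1151 and 1127 in the BRG1-labelled libraries (log2 fold change 1.83 ± 0.12; adjusted p = 2.1e-08). LOXL1, the oxidase that FBLN5 tethers to elastic fibres, stood at 163 and 177 CPM, and at 319 and 320 (0.91 ± 0.10; adjusted p = 4.98e-06). LOXL4 had a log2 fold change of 1.51 ± 0.17, and ATP7A, the pump that loads lysyl oxidases with copper, one of 0.76 ± 0.13.

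The 3 enzymes called lower were LOXL2 (-0.57 ± 0.13), BMP1, which cleaves the LOX precursor (-0.56 ± 0.11), and FURIN, the convertase that trims profibrillin. FURIN stood at 437 and 503 CPM in the controls and at 203 and 211 in the BRG1-labelled libraries (-1.19 ± 0.11; adjusted p = 6.35e-07). LOXL2, itself a lysyl oxidase, thus fell while LOX, LOXL1, LOXL3 (0.35 ± 0.12) and LOXL4 rose. Fewer of this list were called without either BRG1-labelled library. Its median log2 fold change was then 0.60 without BRG1-labelled library 1 and 0.50 without BRG1-labelled library 2, against 0.56 with all libraries.

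Among 9 tested relatives of the members 5 were called higher and 0 lower. SVEP1, a large matrix protein of EGF and complement modules, stood at 18.7 and 30.3 CPM in the controls and at 214 and 204 in the BRG1-labelled libraries (3.09 ± 0.17; adjusted p = 3.39e-09). HMCN1, or fibulin-6, stood at 9.77 and 15.9 CPM, and at 68.6 and 67.7 (2.41 ± 0.17; adjusted p = 4.8e-08). FBLN7 had 16 and 12 reads in the controls and 188 and 162 in the BRG1-labelled libraries (3.44 ± 0.38; adjusted p = 4.05e-06). EFEMP1, or fibulin-3, was not called, with 4.09 to 5.58 CPM over the 4 libraries. EMILIN1, a glycoprotein at the border of elastin and microfibrils, was called at 0.30 ± 0.10 (adjusted p = 0.0252), and was not called without either BRG1-labelled library (adjusted p = 0.259 and 0.336).

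The latent TGF-beta binding proteins resemble fibrillin in their modules, and some of them tie the growth factor to fibrillin. They did not move together: LTBP1 stood at 1606 and 1977 CPM in controls 1 and 2 and at 822 and 840 in the BRG1-labelled libraries (-1.11 ± 0.12; adjusted p = 4.22e-06). LTBP4, which binds FBLN5, stood at 88.4 and 117 CPM, and at 164 and 172 (0.71 ± 0.12; adjusted p = 0.000279). LTBP3 was called higher (1.12 ± 0.13) and LTBP2 was not called (-0.06 ± 0.14). Of the ligands, TGFB3 was called higher (1.34 ± 0.17), TGFB1 and TGFB2 lower (-0.44 ± 0.11 and -0.57 ± 0.11). With library size alone this list held 5 calls higher and 2 lower in place of 3 and 3.

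Among 9 tested ADAMTS and ADAMTS-like genes, a family with several members that bind fibrillin microfibrils, 7 were called higher and 2 lower. ADAMTSL1 stood at 78.9 and 112 CPM in the controls and at 276 and 284 in the BRG1-labelled libraries (1.55 ± 0.14; adjusted p = 4.17e-07). ADAMTS10 and ADAMTS17, genes of Weill-Marchesani syndromes, had log2 fold changes of 0.79 ± 0.13 and 1.55 ± 0.25. ADAMTSL4, a gene of lens dislocation, was lower, at 37.6 and 34.0 CPM against 80.7 and 92.0 (-1.27 ± 0.11; adjusted p = 4.2e-07), as was ADAMTS6 (-0.50 ± 0.13).

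Of 6 matrix partners 4 were called higher and 0 lower. FN1, fibronectin, on which fibrillin assembles, stood at 2192 and 3348 CPM in the controls and at 12207 and 12524 in the BRG1-labelled libraries (2.16 ± 0.17; adjusted p = 1.29e-07). DCN, decorin, stood at 522 and 497 CPM, and at 1350 and 1348 (1.41 ± 0.11; adjusted p = 1.08e-07). Of 8 integrins 2 were called higher and 3 lower (median -0.13), or 4 and 1 with library size alone. Those lower were ITGA5 (-0.34 ± 0.11), ITGB5 (-0.39 ± 0.10) and ITGB8 (-0.57 ± 0.12). Those higher were ITGB1 (0.29 ± 0.11) and ITGA8. ITGA8, whose product pairs with ITGB1 to bind fibronectin, stood at 53.3 and 71.1 CPM in the controls and at 227 and 232 in the BRG1-labelled libraries (1.88 ± 0.13; adjusted p = 2.82e-08).

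Of 8 tested elastases, enzymes that can cut elastin, 6 were called lower and 0 higher (median -0.33), where 23.6% of all tested genes were lower and 21% higher. MMP12, macrophage metalloelastase, stood at 28.7 and 22.9 CPM in controls 1 and 2 and at 6.63 and 7.93 in the BRG1-labelled libraries (-1.82 ± 0.17; adjusted p = 5.69e-07). The 5 other falls were smaller, from -0.25 for CTSL to -0.93 for CTSS. The 2 not called, MMP2 (0.22 ± 0.12) and ELANE (0.78 ± 0.38), lay higher in both BRG1-labelled libraries than in both controls. MMP2 had the most reads of the list, at 4959 and 5781 CPM in the controls and 6232 and 6289 in the BRG1-labelled libraries. The count depended on the settings: 2 were called higher and 2 lower with scaling by library size alone, and 1 and 4 with the gene span trend removed. Fewer were called lower without either BRG1-labelled library. The median was -0.30 without control 1, -0.36 without control 2, and -0.33 without BRG1-labelled library 1 or BRG1-labelled library 2.

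**Figure D5:**
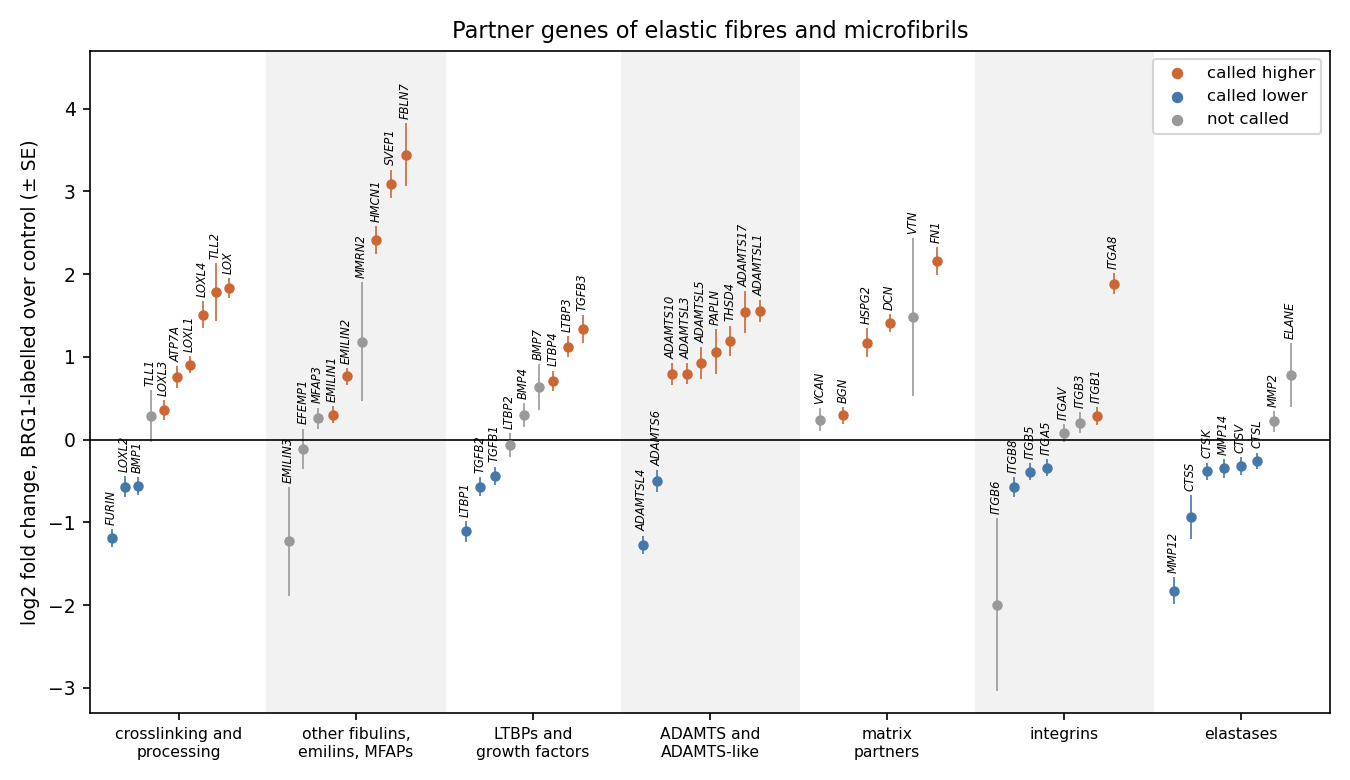
Log2 fold change (BRG1-labelled libraries over controls) with SE bars of the 59 tested partner genes, grouped by role; orange was called higher, blue lower and grey neither. LOX, SVEP1, HMCN1, FBLN7, FN1 and ITGA8 lie high and LTBP1, FURIN, ADAMTSL4 and MMP12 low; in the elastase group 6 of 8 are blue.

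Smooth muscle cells also make elastin, and some of their markers moved with the group. Of 8 markers of smooth muscle and pericytes, 7 could be tested and 3 were called higher: CNN1 (2.29), LMOD1 (2.58) and NOTCH3 (1.22, all log2 fold changes). Summed over all 8 markers, controls 1 and 2 reached 49.3 and 59.3 CPM, and BRG1-labelled libraries 1 and 2 reached 100 and 106 CPM. Much of the control sum was SMTN, which was not called (log2 fold change -0.09 ± 0.13, SE). Its level was 30.5 and 35.8 CPM without the label, against 31.2 and 31.0 CPM with it. MCAM (-0.02 ± 0.24), DES (0.63 ± 0.75) and MYH11 (0.14 ± 0.49) were not called either. MYH11, the smooth muscle myosin, had 34 and 46 reads in the controls and 40 and 61 in the BRG1-labelled libraries, and RGS5, a pericyte gene, had 0 to 6 reads. Of 6 endothelial markers 2 were called higher, ERG (1.62) and PECAM1 (1.22), while CDH5, KDR and TEK had at most 2 reads in any library. VWF, the sixth, was not called and lay lower, at 2.34 and 1.15 CPM in the controls and 0.71 and 0.72 in the BRG1-labelled libraries (-1.28 ± 0.52; adjusted p = 0.0561, edgeR). The 6 summed to 23.4 and 28.0 CPM in the controls and to 72.1 and 71.6 in the BRG1-labelled libraries, of which ERG alone made up 18.5 and 23.6, and 65.0 and 63.8. The part of other cell types in the values of the elastin and microfibril genes was not tested.

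By the distance between log2 CPM values centred on each gene's mean, the 4 genes nearest to ELN among 9566 with a symbol were ACTA2 (smooth muscle actin; distance 0.37), LAMA3 (a laminin chain; 0.95), SFRP2 (a secreted WNT antagonist; 1.05) and TPM1 (a tropomyosin; 1.09). With 4 libraries this distance is mostly one of the size of the group difference. ACTA2 had 256 and 187 reads in controls 1 and 2, and 5276 and 5591 in the BRG1-labelled libraries. LAMA3 had 34 and 51, and 812 and 804.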

How the data were processed

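RNA of porcine fetal fibroblasts was sequenced in 4 libraries, 2 per group, grouped and numbered by the sample titles. The deposited files hold raw counts of reads per Ensembl gene. The submitters' processing notes list edgeR, DESeq2, Cufflinks, SAMtools, STAR and FastQC, and the build Sscrofa11.1; the read counter, strand setting and annotation release are not given in the sources used here. Rows that name no gene were left out of library sizes and tests; besides reads outside genes, ambiguous reads made up 1.90% to 2.33% and reads aligned to several places 1.42% to 1.80% of all reads.

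In R 4.3.3 with edgeR 4.0.16, genes passing filterByExpr (minimum count 10, total 15) were scaled by TMM and tested by group with the quasi-likelihood test, with p-values adjusted by Benjamini-Hochberg over 14617 genes. Standard errors were derived from the fold change without shrinkage and the F statistic. Symbols missing from the files were added from a gene name table for 223 identifiers; positions and spans come from RefSeq on the same build and covered 77.4% of tested genes.

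Members and lists were chosen with earlier results of these data known. Named are all members, SMARCA4, the 12 partners with the smallest adjusted p, LOX, LOXL1, LTBP1, LTBP4 and EMILIN1, and the 4 genes nearest to ELN; other partners named as examples were chosen after their values were seen, as were the neighbours. The planned nearest genes of a falling member were not needed, since 0 members fell. Planned levels per kilobase of coding length could not be computed, so levels are not compared between genes. Alternatives were other scalings, filters, DESeq2 1.42.0, limma-voom (limma 3.58.1), a replicate block, removal of the gene span trend, each library left out, and stricter thresholds. The tests were checked on simulated counts.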

Additional observations from a re-analysis of the deposited data

How the results depend on the processing

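All 10 members kept their direction in every fit that gave them a value, and 9 or 10 were called higher under each alternative: MFAP5 was the one not called or not tested, except at the 2-fold threshold, which EFEMP2 missed. Over all genes, 6512 were called, 3068 higher and 3444 lower. With scaling by library size alone these became 4820 and 2139, and 9 partners were called lower. With the gene span trend removed, 1722 were higher and 3889 lower. That fit covered fewer genes, 11318, and their median log2 fold change was -0.16. At least 2-fold differences numbered 2184 (1267 higher, 917 lower), and among partners 20 (16 and 4). Leaving out 1 library gave 4085 to 7994 calls in all (1908 to 3673 higher, 2177 to 4321 lower) and 29 to 51 among partners (6 to 18 lower), lowest without BRG1-labelled library 1 and highest without control 2; for partners called lower, leaving out either control gave 18. In these fits the lone library is assumed to vary like the other group. SMARCA4 was 0.18 by library size alone and -0.15 to 0.048 with 1 library left out. It was -0.35 with the span trend removed (adjusted p = 0.00549, edgeR), where the median of all genes was -0.16. The cause of these changes was not tested.

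The deviations of same-numbered libraries had a correlation of -0.037 over the tested genes. With a single difference per group, this cannot show whether same-numbered libraries shared a culture, fetus or day. With a replicate block, 9 members were called, and 41 partners (25 higher, 16 lower) in place of 44. Genes under about 10 reads a library, such as MFAP5, are limited by counting.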
